A study of Mus musculus with 4 samples.

Results

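The myostatin, TGF-beta and follistatin axis was examined in C2C12 cells through 10 genes, Mstn, Gdf11, Inhba, Tgfb1, Tgfb2, Tgfb3, Bmp4, Fst, Acvr2b and Smad7. These were picked by symbol from the 24850 named entries of the total RNA tables and the 24992 of the polyA tables, and all 10 were present in each table. C2C12 cells are mouse myoblasts that stop dividing and form myotubes when serum is lowered. Total RNA depleted of rRNA came from myoblasts (MB, labelled DM -24 h) and from myotubes (MT, 72 h in differentiation medium, DM). PolyA+ RNA came from cells kept 48 h in DM after transfection with si-hnRNPL, an siRNA against the RNA-binding protein hnRNPL, or with the control siRNA si-NC. All 4 libraries were thus from the same line, with 1 library per condition, so the differences below could not be checked against replicates and carry no p-value.

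Ligands of the TGF-beta superfamily are secreted as precursors, bind pairs of type II and type I receptor kinases at the cell surface, and signal through phosphorylated Smads that enter the nucleus. Myostatin, GDF11, activins and TGF-betas act through Smad2 and Smad3, and BMPs through Smad1, Smad5 and Smad9. Myostatin is best known as the muscle-derived brake on muscle mass, follistatin binds and neutralises myostatin, GDF11 and activins, and Smad7 is the inhibitory Smad that the pathway itself induces. In myoblast cultures, added myostatin, activin A or TGF-beta is known to hold back differentiation.

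Abundance was taken as FPKM, fragment numbers scaled to transcript length and to all fragments mapped in the library, with the 95% interval deposited beside each value. Here n = 1 library for every value, and the interval covers counting and assignment error within that library only. The interval widths corresponded to 59960176 fragments in MB and 54442655 in MT. For polyA they gave 21341051 in si-NC and 14592485 in si-hnRNPL, sums that cannot be read as library depth. In si-NC, Col3a1 at 1058 FPKM gave 197532 but Fn1 at 1217 FPKM only 9337. In MT the same genes gave 154456 at 329 FPKM and 88198 at 183 FPKM. Differences between libraries were computed as log2((FPKM + 1) ratio), which understates those of low genes, and 0.58 or more in either direction (1.5-fold) was counted as past the fold. The differentiation state followed the labels: the summed FPKM of 8 differentiated muscle genes was 20.5 in MB and 2177 in MT (8 higher past the fold defined above), and that of 4 proliferation genes was 406 and 73.8 (4 lower). The 5 genes of undifferentiated myoblasts were mixed and summed to 345 and 219 FPKM, with Id1 and Id3 lower in MT past the fold, Myod1 higher (36.6 in MB and 65.9 in MT), and Pax7 and Myf5 short of it. In the polyA libraries they summed to 142 (si-NC) and 174 (si-hnRNPL), where Id3 alone was past the fold and Myf5 went the other way, at 38.5 and 29.0 FPKM. Of 12 marker genes of adipocytes, osteoblasts, blood cells and endothelium, the highest level in any library was 1.13 FPKM. In bulk RNA, fewer expressing cells and less RNA per cell cannot be told apart.

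Myostatin mRNA was at or near zero in every library. Mstn (chromosome 1, 53118507 to 53124923 in mm9) was listed at 0 FPKM in MB, si-NC and si-hnRNPL and at 0.00913 FPKM (0 to 0.0220) in MT, a value that corresponds to 2 fragments. At 3 fragments, taken as the limit of detection, the gene would have stood at 0.0144 FPKM in MB and 0.0137 in MT. By the worth of a fragment in other genes, the same limit was about 0.0357 FPKM for si-NC and 0.0549 for si-hnRNPL. These polyA limits are rough, since the numbers derived from polyA intervals need not be fragment numbers. No fold is given for Mstn, since it was below the limit in MB and MT and listed at 0 in si-NC and si-hnRNPL. Its paralog Gdf11, which encodes a ligand with a closely related mature domain, was measured at between 7.51 and 10.9 FPKM. Over the 4 values of log2(FPKM + 1), the 3 genes with the pattern nearest to that of Mstn were 4933406G16Rik, 4930550C17Rik and Gm438, at distances up to 0.000129. They were among 6930 of 23686 named genes within a distance of 0.02, so likeness to Mstn meant little more than not being detected.

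RefSeq promoters, from 250 bases before to 50 bases after the start of transcription, were on hand for 7 of the 10 genes. Those of Mstn, which stayed under the limit of detection, Bmp4, which was higher in MT, and Inhba, which was lower in MT, are shown because they stand for the 3 patterns of expression described here. Each was printed from the GRCm38.p6 table and found by exact match once on its chromosome in mm9, at chr1:53118234-53118533 on the plus strand for Mstn, chr14:47010295-47010594 on the minus strand for Bmp4 and chr13:16103434-16103733 on the plus strand for Inhba. The Inhba start of this window is that of the polyA tables (16103684), whereas the locus in the total RNA tables starts at 16106308. Capitals mark E-boxes, the CANNTG letters that MyoD, myogenin and other basic helix-loop-helix factors recognise.
Mstn: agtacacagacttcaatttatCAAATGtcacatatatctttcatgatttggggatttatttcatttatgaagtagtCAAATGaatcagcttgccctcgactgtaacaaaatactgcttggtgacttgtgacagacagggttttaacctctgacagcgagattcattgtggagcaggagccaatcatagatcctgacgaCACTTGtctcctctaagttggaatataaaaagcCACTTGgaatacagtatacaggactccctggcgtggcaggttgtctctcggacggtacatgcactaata
Bmp4: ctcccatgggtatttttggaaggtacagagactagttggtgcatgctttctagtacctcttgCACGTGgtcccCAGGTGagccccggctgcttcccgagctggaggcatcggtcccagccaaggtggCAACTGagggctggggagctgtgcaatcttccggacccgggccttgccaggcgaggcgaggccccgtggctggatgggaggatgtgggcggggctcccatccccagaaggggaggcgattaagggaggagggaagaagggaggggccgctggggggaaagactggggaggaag
Inhba: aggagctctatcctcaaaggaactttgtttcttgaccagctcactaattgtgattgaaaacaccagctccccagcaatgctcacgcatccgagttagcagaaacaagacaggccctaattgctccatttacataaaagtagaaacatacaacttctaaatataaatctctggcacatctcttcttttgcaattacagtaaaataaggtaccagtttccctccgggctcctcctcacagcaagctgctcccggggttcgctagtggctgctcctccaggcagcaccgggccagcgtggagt
The Mstn window held 4 E-boxes, that of Bmp4 3 and that of Inhba 0, against a mean of 1.39 over all 32851 promoters of this length, of which 72.3% held at least 1. Letters of the SMAD box, CAGAC on either strand, occurred 2 times in the Mstn window and 0 times in those of Bmp4 and Inhba (49.6% of all promoters). The AP-1 letters TGANTCA were found in the Mstn window alone among the 7 (7.81% of all promoters), where they overlap an E-box. TATAAA was present before the start of Mstn and of Inhba and absent from the Bmp4 window (13.6% of all promoters). These matches describe letters in a window and are no evidence of binding.

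**Figure D1:**
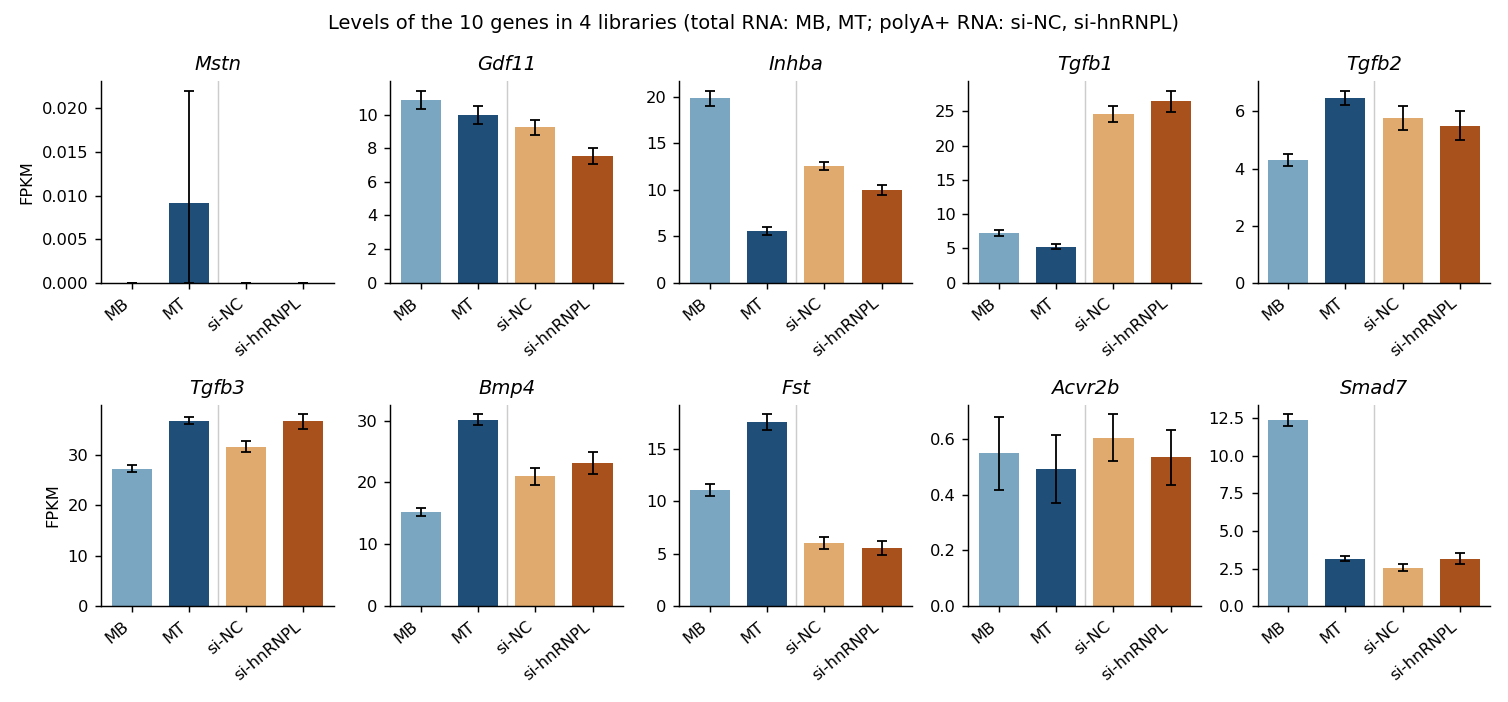
FPKM of the 10 genes in the 4 libraries, 1 panel per gene with its own axis from 0; bars are single libraries and error bars are the deposited 95% intervals. The grey line parts total RNA (MB, MT) from polyA+ RNA (si-NC, si-hnRNPL), which were prepared differently. Smad7 and Inhba stand highest in MB, Bmp4 and Fst stand higher in MT than in MB, and Mstn does not exceed 0.00913 FPKM.

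To learn how the axis is remodelled during differentiation, MT was compared with MB. Of the 10 genes, 2 were higher in MT past the fold (Bmp4 and Fst) and 2 were lower (Inhba and Smad7), while Gdf11, Tgfb1, Tgfb2, Tgfb3, Acvr2b and Mstn were not past it. Of the 18624 named entries above 0 in either library, 10.4% were higher and 18.3% lower, and of the 11816 entries with an FPKM of 1 or more in either library, 15.4% were higher and 28.6% lower. The median change of entries with an FPKM of 1 or more in both libraries was -0.23. Relative to that median, 4 of the 10 genes were higher (Tgfb2 and Tgfb3 in addition) and the same 2 were lower, against 22.8% and 18.7% of the 11816 entries. The median change of the 10 genes was -0.02, and that of all named entries above 0 was -0.0049. The interval of the change left out 0 for 8 of the 10 genes and for 89.8% of the 11816 entries.

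**Figure D2:**
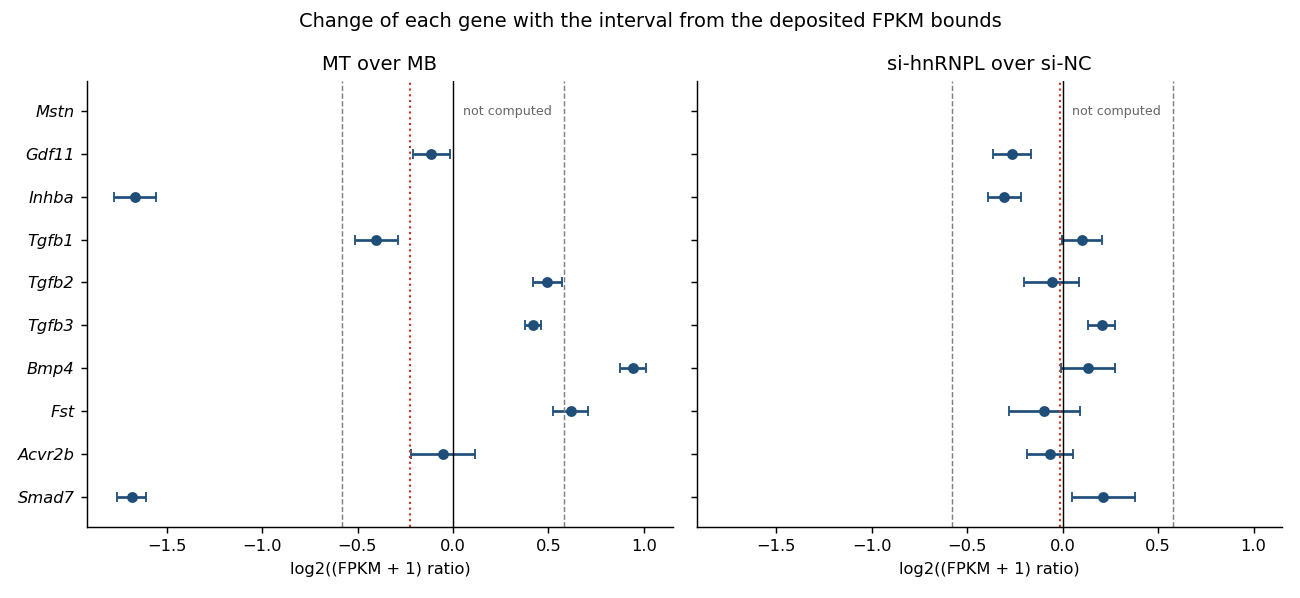
Log2((FPKM + 1) ratio) of each gene in MT over MB (left) and si-hnRNPL over si-NC (right), with intervals from the half-widths of the deposited bounds of both libraries added in quadrature. Dashed lines mark 0.58 in either direction and the red dotted line the median of named genes with an FPKM of 1 or more in both libraries (-0.23 on the left). On the left Bmp4 and Fst lie above the upper dashed line and Inhba and Smad7 far below the lower one, and on the right no gene reaches either.

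Among the ligands, the activin subunit gene Inhba differed most. Inhba (chromosome 13, 16106308 to 16119044) encodes the activin beta A subunit, whose dimer is activin A. It stood at 19.8 FPKM (19.0 to 20.7) in MB and 5.56 (5.13 to 6.0) in MT, 3.56-fold lower in MT and a log2 change of -1.67 (-1.78 to -1.56). The intervals of the levels were far apart, and 4.65% of the 11816 entries had a lower change. The beta B subunit gene Inhbb, named after its values were seen, went the other way, from 12.3 FPKM (11.9 to 12.7) in MB to 26.9 (26.3 to 27.4) in MT. The level of Inhbb over that of Inhba was therefore 0.619 in MB and 4.83 in MT, on the FPKM scale. In the polyA libraries at 48 h the same ratio was 6.59 in si-NC and 8.25 in si-hnRNPL. There the Inhba model reaches 4398 bases farther at its 3′ end, so these ratios are on another scale.

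Bmp4 (chromosome 14, 47003196 to 47010274), a BMP ligand known for turning C2C12 cells away from muscle and toward bone when added in excess, was 1.98-fold higher in MT. Its level was 15.2 FPKM (14.6 to 15.8) in MB and 30.1 (29.3 to 31.0) in MT, a log2 change of 0.94 (0.87 to 1.01), and 8.66% of entries had a higher one. A noncoding gene model, Gm15217, overlaps the last 86 bases of the locus and held 4 fragments in MB and 10 in MT, against 2308 and 4790 for Bmp4. Of the 4 osteoblast markers, which summed to 0.384 FPKM in MB and 1.17 in MT, Bglap was higher in MT (0.202 and 1.09 FPKM), Sp7 was lower (0.131 and 0.0271), Alpl was level (0.0510 and 0.0487) and Ibsp was listed at 0 in both.

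The 3 TGF-beta genes all stayed short of the fold counted here, and differed in direction. Tgfb3 (chromosome 12, 87397693 to 87419991) was the most abundant of the 10 genes in every library, with 27.3 FPKM (26.6 to 27.9) in MB and 36.8 (36.1 to 37.5) in MT, a log2 change of 0.42 (0.38 to 0.46). Tgfb2 (chromosome 1, 188447065 to 188529871) stood at 4.31 FPKM (4.10 to 4.52) in MB and 6.47 (6.22 to 6.73) in MT, a change of 0.49 (0.42 to 0.57) that lies just short of the fold. Tgfb1 (chromosome 7, 26472021 to 26490015), whose product is the founding ligand of the family, was the TGF-beta gene lower in MT, at 7.24 FPKM (6.82 to 7.67) in MB and 5.24 (4.89 to 5.60) in MT. Its change of -0.40 (-0.51 to -0.29) amounted to -0.17 relative to the median of -0.23. No interval of these 3 genes included 0. The level of Tgfb3 over that of Tgfb1 was 3.77 in MB and 7.01 in MT.

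Gdf11 (chromosome 10, 128321602 to 128328774) was nearly level, at 10.9 FPKM (10.3 to 11.4) in MB and 9.97 (9.44 to 10.5) in MT. Its log2 change was -0.11 (-0.21 to -0.02), or 0.11 relative to the median, so that its sign depended on the scaling.

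Follistatin mRNA differed in the direction opposite to Inhba. Fst (chromosome 13, 115242470 to 115249159) stood at 11.1 FPKM (10.5 to 11.7) in MB and 17.5 (16.8 to 18.3) in MT, 1.58-fold higher, with a log2 change of 0.62 whose interval (0.53 to 0.71) reached below the fold of 0.58. The level of Fst over that of Inhba was 0.558 in MB and 3.15 in MT. Fstl3, the related secreted inhibitor of activins, was named after its values were seen and was lower in MT, with 20.5 FPKM (19.7 to 21.2) in MB and 13.1 (12.5 to 13.7) in MT, a change of -0.61 that was -0.38 relative to the median. Among 23686 named genes, those with the pattern nearest to that of Fst over the 4 values of log2(FPKM + 1) were Herc1, Trip11 and Pde4d, at distances of 0.226, 0.366 and 0.41.

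The type II receptor gene Acvr2b, whose product binds myostatin, GDF11 and activins, was low and level. Acvr2b (chromosome 9, 119311619 to 119342624) was at 0.548 FPKM (0.417 to 0.679) in MB and 0.493 (0.372 to 0.614) in MT, from 70 and 66 fragments, and the interval of its change (-0.22 to 0.12) included 0. Acvr2a, the other activin type II receptor gene, also named after its values were seen, was the more abundant of the pair, at 4.84 FPKM (4.63 to 5.04) in MB and 10.9 (10.6 to 11.2) in MT, 2.25-fold higher.

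Smad7 had the lowest change of the 10 genes, next to that of Inhba. Smad7 (chromosome 18, 75527019 to 75555588), the inhibitory Smad that recruits ubiquitin ligases to active type I receptors, stood at 12.4 FPKM (12 to 12.8) in MB and 3.17 (2.98 to 3.35) in MT. It was 3.91-fold lower, with a log2 change of -1.68 (-1.76 to -1.61) from 4396 and 1177 fragments, and 4.55% of entries had a lower change. The order of the 10 levels shifted accordingly. In MB it ran Tgfb3, Inhba, Bmp4, Smad7, Fst, Gdf11, Tgfb1, Tgfb2, Acvr2b and Mstn, with overlapping intervals only between the neighbours Fst and Gdf11. In MT it ran Tgfb3, Bmp4, Fst, Gdf11, Tgfb2, Inhba, Tgfb1, Smad7, Acvr2b and Mstn, with overlap only between Inhba and Tgfb1.

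The total RNA tables also list transcript units assembled from the reads, most of which are not part of the gene models, and those in or within 5 kb of the 10 loci gave a second readout. There were 17 such units, with 7 at Smad7, 7 at Acvr2b, 1 each downstream of Gdf11 and Inhba and upstream of Tgfb2, and 0 at the other 5 genes. At Smad7, 4 units lay inside the gene, 3 of them in introns and 1 touching an annotated exon, while 1 lay 293 bases upstream and 2 lay downstream. All 7 were lower in MT, by 1.85 to 5.77-fold, against 20.7% of all 36780 assembled units lower by any amount. The 5.77-fold difference, of the nearer downstream unit, came from 33 fragments in MB and 6 in MT. Intervals of the libraries overlapped for the exon-touching unit (40 and 23 fragments) and the farther downstream one (13 and 5). The longest of the intronic units had 3.33 FPKM (3.08 to 3.59) in MB and 1.19 (1.04 to 1.34) in MT. At Acvr2b, all 7 units were intronic and all 7 were higher in MT, by 1.23 to 3.43-fold, against 79.3% of all units. They were few in fragments, 72 in MB and 133 in MT in sum, and in each of the 7 the intervals of the libraries overlapped. Units of a locus share their source and are no replicates, and the tables give no strand for them.

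**Figure D3:**
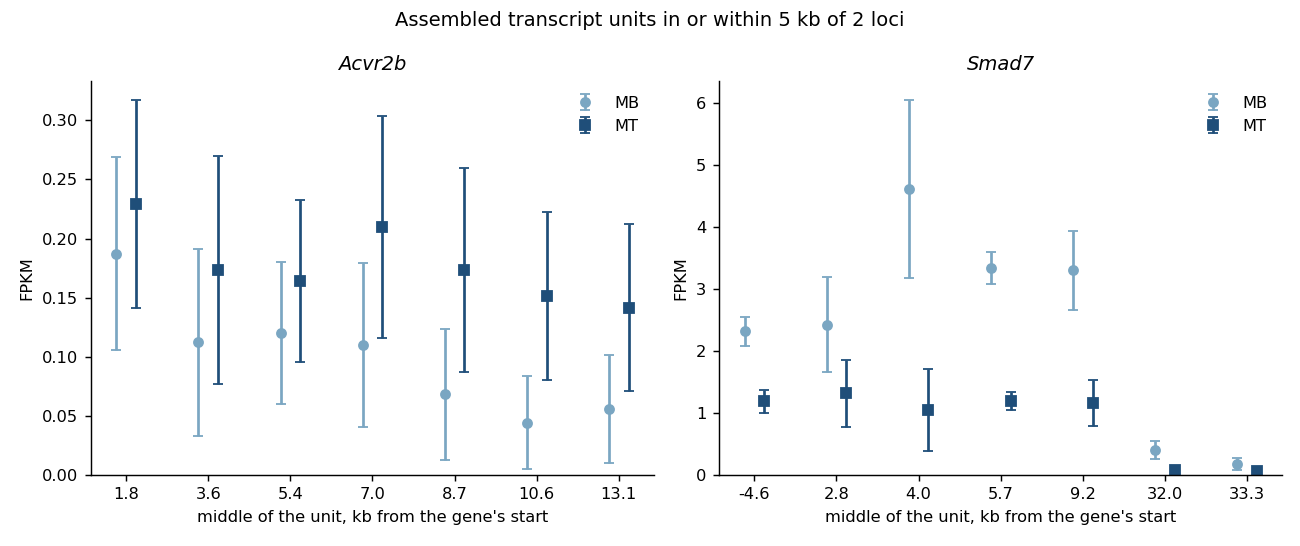
FPKM of the assembled transcript units in or within 5 kb of Acvr2b (left) and Smad7 (right), in MB (circles) and MT (squares) with the deposited 95% intervals; units are spaced evenly and labelled with the distance of their middle from the start of the gene. Units at Smad7 lie lower in MT in all 7 cases, with overlapping intervals for the exon-touching unit and the farthest downstream one. Those at Acvr2b lie higher in MT with overlapping intervals throughout.

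The rest of the pathway was read from 5 lists of genes by role, 130 in all, of which 119 were above 0 in MB or MT. Past the fold, 21 were higher and 22 lower in MT, shares of 17.6% and 18.5% beside the background of 10.4% and 18.3%, and the median change was -0.0053. Of the 119, 84 had an FPKM of 1 or more in either library, where the background was 15.4% higher and 28.6% lower. The receptors and co-receptors stood out by direction, with 7 of 17 higher, 0 lower and a median of 0.43. Among the 17, 12 had an FPKM of 1 or more in either library. Hfe2 (hemojuvelin, a BMP co-receptor) was at 0.0584 FPKM in MB and 36.2 in MT. Tgfbr1 and Tgfbr2, the receptor pair for TGF-beta, were higher in MT as well, at 11.2 against 19.6 FPKM and 34.4 against 56.6 FPKM. Rgma, Rgmb, Tgfbr3 and Acvr2a made up the remainder of the 7. Of the other ligands, 19 of 26 were above 0, and the 2 higher were Inhbb and Bmp6, the latter at 0.722 FPKM in MT. Gdf15, a stress-induced ligand, was the single lower one, at 15.7 FPKM in MB and 6.53 in MT. In these lists, Tagln, Ctgf, Id1, Dcn, Hfe2, Chrdl1, Itgb6, Cdkn1a and Id3 were named by the size of their change, and the others were chosen after their values were seen.

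Among 33 binding proteins, inhibitors and activators of ligands above 0, 6 were higher (18.2%) and 4 lower (12.1%), with a median of 0.0024. The background was 10.4% and 18.3%, or 15.4% and 28.6% at an FPKM of 1 or more in either library, which 23 of the 33 had. Dcn (decorin, a small proteoglycan that binds TGF-beta and myostatin) had the highest change of the listed genes at the pseudocount of 1 used here, though Hfe2 had the higher one at 0.1 and 0.01, and stood at 0.503 FPKM (0.381 to 0.625) in MB and 63.1 (61.8 to 64.4) in MT. Chrdl1, a secreted BMP antagonist, had 2.73 FPKM in MB and 36.2 in MT. Itgb6, a subunit of an integrin that releases latent TGF-beta, had 0.972 and 8.26 FPKM. Grem1, another secreted BMP antagonist, was abundant in both libraries, at 124 FPKM (122 to 127) in MB and 94.7 (92.9 to 96.4) in MT. The level of Grem1 over that of Bmp4 was 8.19 in MB and 3.14 in MT.

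Within the 24 other Smads and their regulators, 1 was higher and 5 were lower, with a median of -0.25. All 24 had an FPKM of 1 or more in either library, where the background was 15.4% higher and 28.6% lower, and the list had 4.17% and 20.8%. Smad3, which carries activin and TGF-beta signals, was the higher one, at 12.6 FPKM in MB and 21.5 in MT. Smad6, the inhibitory Smad of the BMP branch, was lower together with Smad7, at 6.53 FPKM (6.20 to 6.87) and 2.64 (2.43 to 2.85). Smad9 was lower too, at 3.43 and 0.737 FPKM. Of 26 commonly used transcriptional targets above 0, 12 were lower (46.2%) and 5 higher (19.2%), with a median of -0.55. All named entries above 0 had 18.3% lower and 10.4% higher. Most of these targets, 23 of the 26, had an FPKM of 1 or more in either library, where the background was 28.6% lower and 15.4% higher. Relative to the median of -0.23, 8 of the 23 targets with an FPKM of 1 or more were lower and 5 higher. Of the 11816 entries, 18.7% and 22.8% were. Tagln (transgelin), Ctgf (a matricellular protein) and Id1 (an inhibitor of helix-loop-helix factors) were 3.04, 3.0 and 2.85-fold lower in MT. Cdkn1a, the cell-cycle inhibitor p21, was 3.84-fold higher, from 35.3 to 135 FPKM. The muscle and proliferation genes differed between the same libraries by the sums given above, and their part in the values of these targets was not tested.

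**Figure D4:**
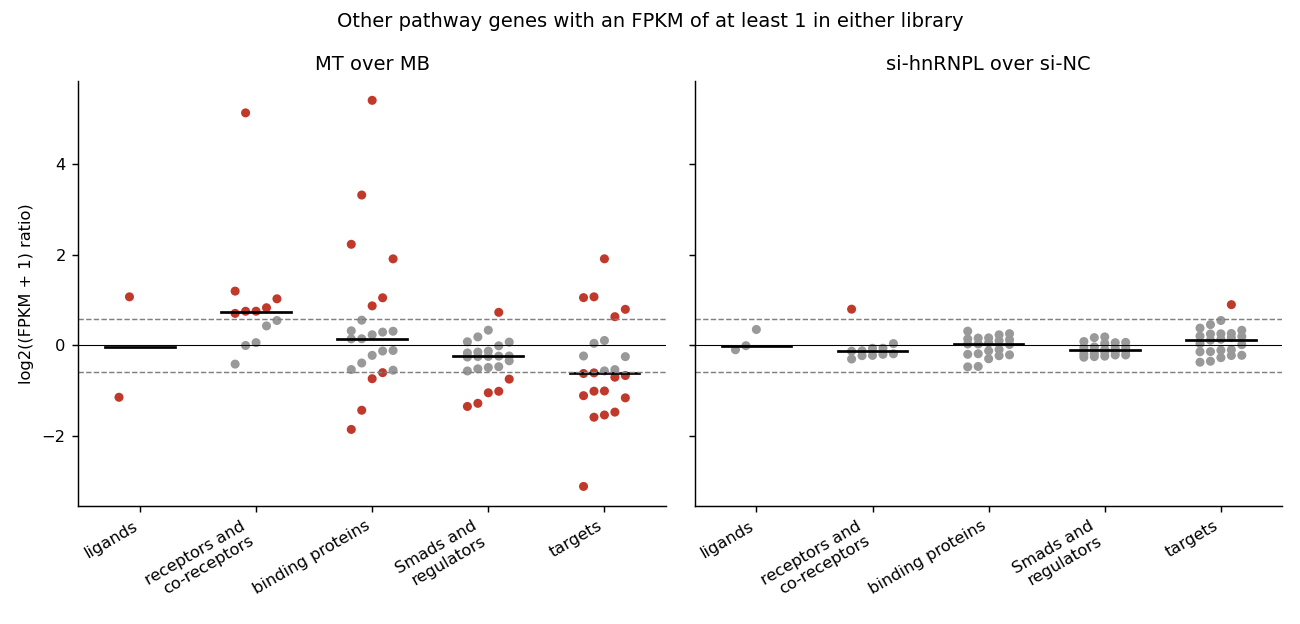
Log2((FPKM + 1) ratio) of the listed pathway genes with an FPKM of 1 or more in either library, for MT over MB (left) and si-hnRNPL over si-NC (right); points are genes, red where they reach 0.58 in either direction (dashed lines), and bars are medians. On the left the receptors lie mostly above 0 and the targets mostly below, and on the right 2 genes reach the fold.

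The polyA comparison asked whether the axis responds to siRNA against hnRNPL. Hnrnpl mRNA itself was at 95.1 FPKM (92.7 to 97.5) in the control library, si-NC, and 85.9 (83.1 to 88.7) in that of si-hnRNPL, a log2 change of -0.14 (-0.20 to -0.09) that left 90.4% of the control level. The paper examined the knockdown by Western blot of the protein, which mRNA values do not measure. None of the 10 genes was past the fold (0 higher and 0 lower), where 1.03% of the 16767 named entries above 0 were higher and 0.62% lower. Of the 11370 entries with an FPKM of 1 or more in either library, 1.44% were higher and 0.888% lower. The largest differences among the 10 were those of Inhba and Gdf11. Inhba had 12.5 FPKM (12.1 to 13) in the control and 9.96 (9.43 to 10.5) after si-hnRNPL, a log2 change of -0.31 (-0.39 to -0.22), and 13.6% of entries differed by at least as much in either direction. Gdf11 had 9.23 FPKM (8.80 to 9.66) and 7.51 (7.03 to 8.00), a change of -0.27 (-0.37 to -0.16).

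Tgfb3 and Smad7 differed upwards by smaller amounts. Tgfb3 stood at 31.7 FPKM (30.6 to 32.7) in the control and 36.6 (35.2 to 38.0) after si-hnRNPL, a change of 0.20 (0.13 to 0.28). Smad7 stood at 2.58 FPKM (2.32 to 2.84) and 3.15 (2.79 to 3.51), with overlapping intervals of the levels and a change of 0.21 (0.05 to 0.38). The interval of the change left out 0 for these 4 of the 10 genes, and for 47.5% of the 11370 entries. For Bmp4 (21.0 and 23.1 FPKM), Tgfb1 (24.6 and 26.5), Tgfb2 (5.77 and 5.50), Fst (6.01 and 5.56) and Acvr2b (0.604 and 0.534) the interval included 0. With 1 library per siRNA, these intervals do not show that the genes were alike, and they cover only counting and assignment error within a library.

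Other measures moved between the polyA libraries as well. The 8 differentiated muscle genes summed to 3121 FPKM in the control and 4689 after si-hnRNPL (3 higher past the fold), the 4 proliferation genes to 163 and 117 (2 lower), and their part in the values above was not tested. Across 9859 protein-coding genes the change was related to exon length (Spearman rho -0.41, across genes, which are not independent replicates), with a median of 0.108 among genes of at most 2407 exon bases and -0.110 among those of 5731 or more. By the GENCODE exon models the 10 genes span 1753 to 4842 bases, while the polyA tables extend the 3′ ends of Gdf11, Inhba and Acvr2b by 4022, 4398 and 8642 bases beyond those of the total RNA tables. Levels of these 3 genes are therefore scaled by different lengths in the 2 kinds of library. Their polyA models also end beyond those of GENCODE, so the GENCODE lengths do not place these 3 in the relation to length. Inhba and Gdf11 among them had the largest differences of the 10 genes, and the part of length in these was not tested. In the listed pathway genes, 2 of 114 were higher past the fold and 0 lower. These were Id3, a target of BMP signalling, at 34.1 FPKM (31.8 to 36.5) in the control and 64.5 (60.5 to 68.6) after si-hnRNPL, and Hfe2, at 22.2 FPKM (21.0 to 23.4) and 39.4 (37.4 to 41.3).

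Side by side, the polyA cultures at 48 h shared with both total RNA libraries the top place of Tgfb3 and the bottom places of Acvr2b and Mstn. In si-NC the order was Tgfb3, Tgfb1, Bmp4, Inhba, Gdf11, Fst, Tgfb2, Smad7, Acvr2b and Mstn, and it was the same in si-hnRNPL, with overlapping intervals only between Fst and Tgfb2. Tgfb1 held the second place there, with Tgfb3 over Tgfb1 at 1.29 in si-NC, and Fst stood below Inhba, at a ratio of 0.479. The polyA+ and total RNA libraries differed in RNA selection, library preparation, transfection and time in DM, which cannot be told apart, so no change between them was computed.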

How the data were processed

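The data were total RNA-seq (MB, MT) and polyA+ RNA-seq (si-NC, si-hnRNPL) of C2C12 cells, 1 library each, grouped by sample title. The authors trimmed reads, discarded those under 36 bp, mapped the rest to mm9 with TopHat2 and deposited Cufflinks FPKM values with 95% bounds. The gene annotation is not given in the sources used here.

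The fragments behind a value were derived from its bounds as (2 x FPKM / (upper bound - FPKM)) squared. These are mostly whole in the total RNA tables but not in the polyA tables, where they need not be fragment numbers. With 1 library per condition no test was run. Changes were log2((FPKM + 1) ratio), counted at 0.58 or more. Their intervals added the half-widths of both libraries in quadrature. The limit of detection was 3 fragments, covering counting error only. The 10 genes and the lists were chosen with earlier results of these data known. Named besides the 10 were, per comparison, the 5 largest rises and 5 largest falls among listed genes past the fold with an FPKM of 1 or more in either library, Hnrnpl, and the 3 genes nearest to Mstn and Fst by Euclidean distance. Some genes that this rule names are not reported here. Other pseudocounts (0.1, 0.01), centring on the median, upper-quartile scaling, a 2-fold limit and a filter at an FPKM of 1 were tried. Strands, exons and lengths came from GENCODE for mm9, and promoters from RefSeq. Python 3.11.15, numpy 2.4.6, pandas 2.3.3 and matplotlib 3.10.9 were used.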

Additional observations from a re-analysis of the deposited data

How the results depend on the processing

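For MT over MB, 4 of the 10 genes were higher past the fold in place of 2 with centring on the median and with upper-quartile scaling, which added Tgfb2 and Tgfb3. With a pseudocount of 0.01 there were also 4, but these added Tgfb2 and Mstn, the latter from 2 fragments against 0 and under the limit of detection. At 2-fold there were 0. The number lower stayed at 2 under each of these settings. The median change of the 10 genes was -0.02 as reported, 0.15 with a pseudocount of 0.01, 0.21 with centring, 0.0942 with upper-quartile scaling and 0.15 with an FPKM of 1 or more required, which left 8 genes. Of the listed pathway genes, 37 were higher and 34 lower with a pseudocount of 0.01, and 12 were higher at 2-fold. For si-hnRNPL over si-NC, the 10 genes gave 0 past the fold under every setting. The listed genes gave 4 higher and 3 lower with a pseudocount of 0.1, 10 higher and 13 lower with 0.01, and 0 higher at 2-fold. Pseudocounts below 1 bring in genes of few fragments. Of 628 recomputed changes of named genes, 219 lay outside the interval of the change as reported. Directions of genes past the fold could not turn. A pseudocount does not alter the sign of a change, and both scalings shifted it by less than the fold. Genes short of the fold could turn, as Gdf11 did in MT over MB with centring (-0.11 and 0.11). No paired analysis was possible because each condition has 1 library, and for the same reason no library could be left out. Depth limits Mstn and Acvr2b most, and no setting stands in for a replicate.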
